A study of Saccharomyces cerevisiae with 24 samples.

Results

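Direct RNA sequencing values were examined at 8 pseudouridines (Ψ) of the 25S rRNA of budding yeast (Saccharomyces cerevisiae), all in domain V around the peptidyl transferase centre. The sites were chosen by position, as Ψ2416, Ψ2735, Ψ2826, Ψ2865, Ψ2880, Ψ2923, Ψ2944 and Ψ2975, counted from 1 at the 5′ end of the mature 25S rRNA. They are 8 of the 5475 rRNA positions in the deposited tables and 8 of the 45 pseudouridines on the list of known sites used here. The 5 positions on either side of each site, 80 in all, served as context. The series held 24 libraries in 12 groups of 2. In the strain experiment these were the snoRNA deletions snR34KO, snR3KO and snR36KO, in each of which a kanMX4 cassette replaced the snoRNA sequence of BY4741, and wild-type BY4741 (WT). The number of clones per deletion is not given in the sources used here. In the gradient experiment they were fractions F1, F2, F3 and F4 of a sucrose gradient from WT cells. In the peroxide experiment, WT cells exposed to 1 mM H2O2 for 30 min were set against untreated WT cells, both as total RNA (input) and as fractions 3-4 of a gradient (F3-4). Strain and input RNA was purified with a kit from pelleted cells, whereas gradient RNA came from extracts made with cycloheximide.

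Pseudouridine is an isomer of uridine in which the base is joined to the ribose through a carbon atom. In yeast rRNA most pseudouridines are made by the H/ACA snoRNP enzyme Cbf5, which a guide snoRNA directs to its target by base-pairing. Domain V of the large-subunit rRNA forms the peptidyl transferase centre, the ribozyme that joins amino acids, and its A loop binds the CCA end of the tRNA in the A site. A nanopore reads each native RNA molecule as it is drawn through the pore, and a modified base can alter the ionic current and so the base call. A mismatch frequency is therefore not a share of modified molecules. In bulk RNA, fewer modified molecules and a weaker signal per molecule cannot be told apart.

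The 8 sites stand in different sequences, which are shown because error and current both depend on the bases in the pore. Each line gives 11 bases from the reference base column of the deposited tables, 5′ to 3′, with T for U and the pseudouridine in capitals.
Ψ2416: tgagcTtgact
Ψ2735: gtgaaTacaaa
Ψ2826: ctggcTtgtgg
Ψ2865: tttgaTtcttc
Ψ2880: tcggcTcttcc
Ψ2923: gattgTtcacc
Ψ2944: gaacgTgagct
Ψ2975: caggtTagttt

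From general knowledge of yeast snoRNAs, 7 guides serve the 8 sites. Ψ2416 is directed by snR11, Ψ2735 by snR189, Ψ2865 by snR46, Ψ2923 by snR10, Ψ2944 by snR37 and Ψ2975 by snR42. Ψ2826 and Ψ2880 share the guide snR34. The base after the site is a U at 4 sites, an A at 2, a C at 1 and a G at 1. The base before it is a C at 3 sites, an A at 2, a G at 2 and a U at 1. Ψ2416 and Ψ2826 have the same central 5-mer, GCTTG. At 4 of the sites the window holds other listed modifications, 7 in all. These are the 2′-O-methylated Um2417 and Um2421 beside Ψ2416, the base-methylated m5C2870 beside Ψ2865, Um2921 and Gm2922 beside Ψ2923, and Am2946 and Cm2948 beside Ψ2944. Um2921, Gm2922 and Ψ2923 are neighbours in the A loop.

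Tables of base-call errors were used for 20 libraries, the strains having 1 each (replicate 1), and current levels for the 8 strain libraries. All 8 sites had at least 20 reads in all 20 libraries, from 92 reads at Ψ2416 in F1 replicate 1 to 24442 at Ψ2975 in snR3KO. Coverage was higher toward the 3′ end, and that at Ψ2975 was 1.09 to 3.98 times that at Ψ2416. The highest ratio belonged to H2O2 F3-4 replicate 2, which also stood apart from its partner: their mean chi-square per position was 9.26, where sampling noise gives 1 and the other replicated groups gave 1.70 to 7.04, the highest of them F2. F1 (both libraries) and F4 replicate 1 were shallow, with 92 to 164 reads at the sites. At uridines at least 6 positions from any listed site, called unlisted here, the median mismatch frequency was 2.17% to 4.52% per library.

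The 8 pseudouridines did not share one error signature. Mismatch was the most frequent error in all libraries with the guide at Ψ2416, Ψ2975, Ψ2826, Ψ2865 and Ψ2880, in 18 of 20 libraries at Ψ2923 and in 16 of 20 at Ψ2944, and deletion was at Ψ2735. The mismatch frequency ran from under 10% to over 90% between sites. Over 20 libraries, mismatch at Ψ2416 was 85.7% at the lowest, 89.8% at the median and 92.0% at the highest. At Ψ2975 it was 76.5%, 85.9% and 89.6%, in the same order. In WT neither was exceeded by any of the other 37 listed pseudouridines of yeast rRNA, whose median was 44.3%. At Ψ2826 the lowest, median and highest of the 19 libraries with snR34 were 68.7%, 77.4% and 80.6%. At Ψ2865, over 20 libraries, they were 57.8%, 64.8% and 69.3%. These 4 sites lay above all 1180 unlisted uridines of WT, and so did Ψ2923 and Ψ2880.

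Ψ2923, the A-loop site, ran from 36.7% through a median of 45.3% to 49.1% over 20 libraries. Ψ2880 ran from 37.2% through 42.3% to 45.7% over the 19 libraries with snR34. The weakest mismatch signals were at Ψ2944, with 16.9%, 18.3% and 23.0%, and at Ψ2735, with 7.76%, 10.0% and 15.4%. In WT, 16 of the 1180 unlisted uridines exceeded Ψ2944 and 84 exceeded Ψ2735. Of the other 37 listed pseudouridines, 36 had a higher mismatch frequency than Ψ2735.

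**Figure D1:**
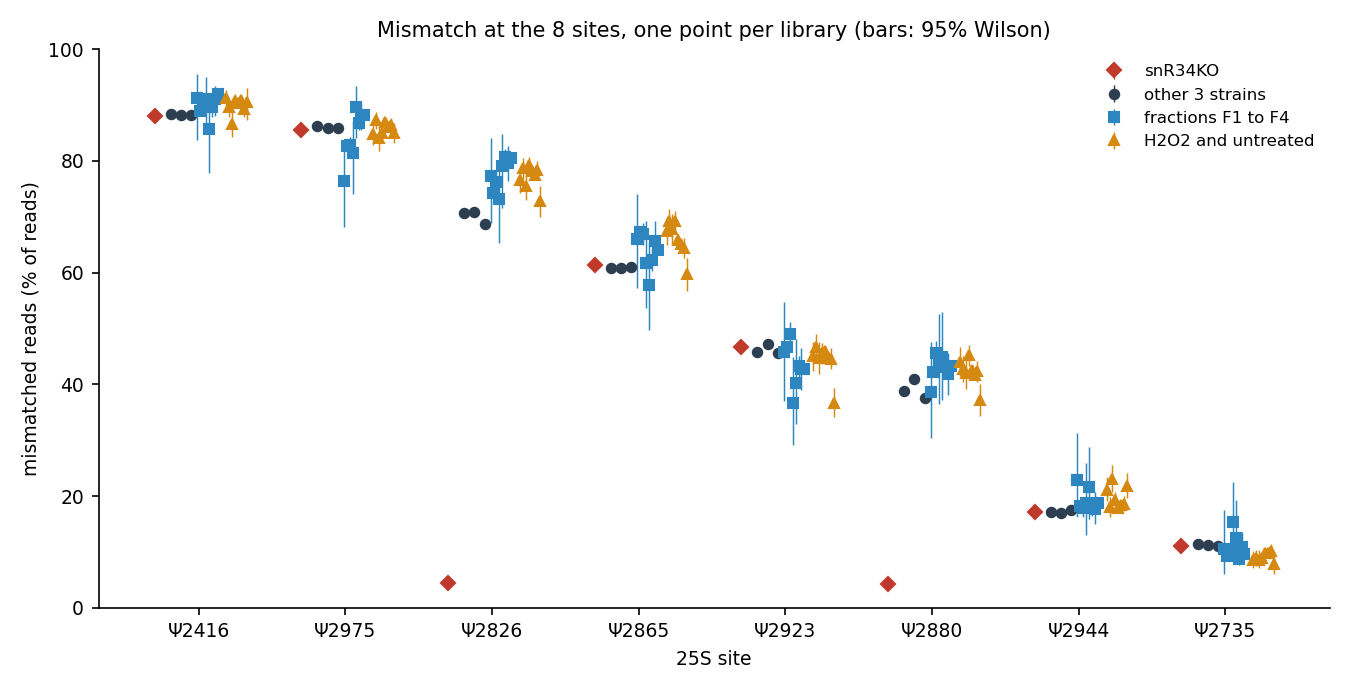
Mismatched reads (% of reads, y axis) at the 8 sites (x axis, by falling median), with one point per library and 95% Wilson intervals as bars, which cover counting error only. snR34KO stands at 4.46% at Ψ2826 and 4.23% at Ψ2880, far below all other libraries there, and beside the other strains at the remaining sites.

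This order of the sites held within most libraries. Mismatch was higher at Ψ2416 than at Ψ2975 in 19 of 20 libraries, at Ψ2975 than at Ψ2826 in 18 of 19, and at Ψ2826 than at Ψ2865 in 19 of 19. It was higher at Ψ2865 than at Ψ2923 in 20 of 20. Ψ2923 and Ψ2880 were the closest neighbours: Ψ2923 was higher in 15 of 19 libraries, and their difference ran from -7.75 to 8.01 percentage points. Ψ2880 was above Ψ2944 in 19 of 19 libraries, and Ψ2944 above Ψ2735 in 20 of 20. The sites differ in sequence, so these levels rank signals and not amounts of Ψ.

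Deletions set a different order. At Ψ2735 the base was skipped in 43.0% of reads at the lowest, 51.8% at the median and 57.6% at the highest, and deletion was the most frequent error there in 20 of 20 libraries. In WT only 19 of the 1180 unlisted uridines and 2 of the other 37 listed pseudouridines had a higher deletion frequency. Ψ2923 followed with 31.4%, 37.9% and 44.2%. Ψ2880 (16.1%, 19.0% and 24.3%) and Ψ2865 (15.1%, 18.1% and 25.9%) overlapped. Deletion at Ψ2944 had a median of 7.60%, and at Ψ2416, Ψ2826 and Ψ2975 the medians were 2.08%, 1.87% and 1.04%. Insertions were highest at Ψ2944 (median 18.1%), Ψ2826 (17.8%) and Ψ2975 (16.3%), against medians of 4.15% to 6.67% at unlisted uridines. Many positions exceeded them in WT: in that order, 49, 22 and 60 of the 1180 unlisted uridines had more insertions. So did 17, 12 and 19 of the other 37 listed pseudouridines.

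**Figure D2:**
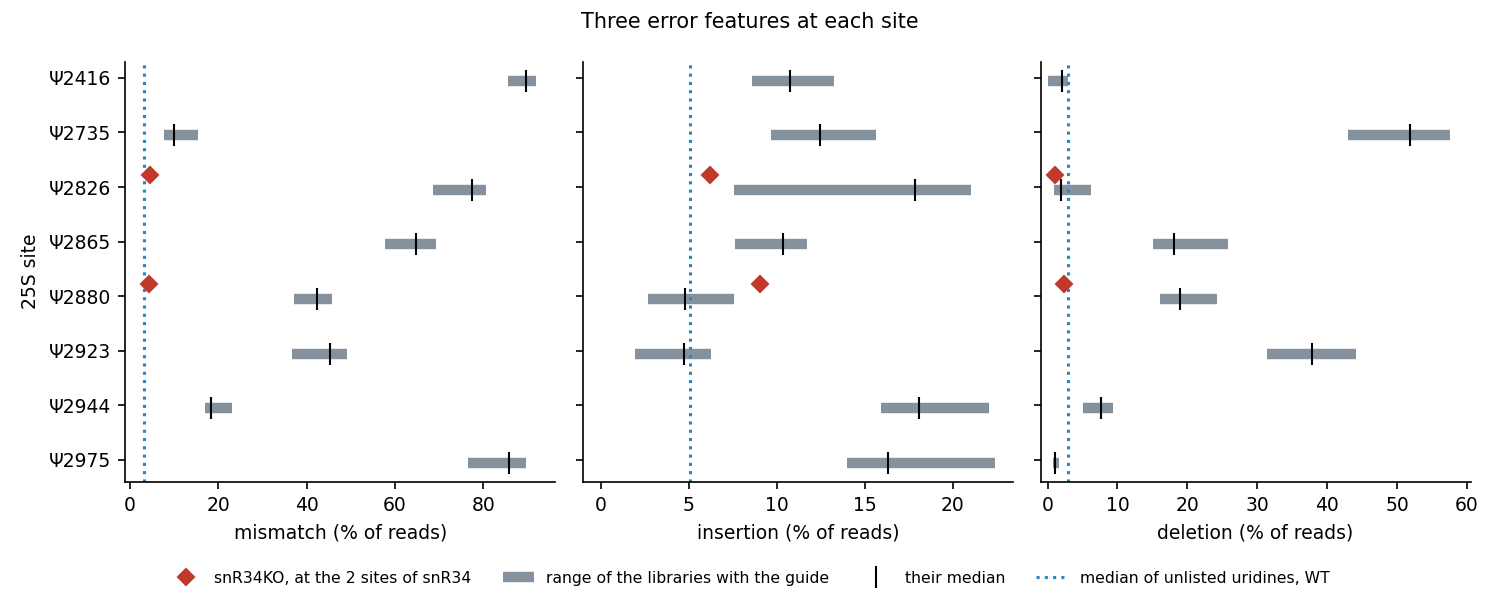
Mismatch, insertion and deletion (% of reads, x axes) at each site (y axis), with grey bars for the range over the libraries that have the guide, black ticks for their median, and dotted lines for the median of unlisted uridines in WT. Red diamonds give snR34KO at the 2 sites of snR34, where mismatch is 4.46% and 4.23%, and Ψ2735 stands out by deletions of 43.0% to 57.6%.

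Base quality, the deposited mean score of the caller's confidence per position, separated the 2 strongest mismatch sites. At Ψ2975 it was 15.6 at the lowest, 18.0 at the median and 20.0 at the highest, and in WT none of the other 37 listed pseudouridines had a higher score. Its uridine was miscalled in most reads, yet at a quality close to that of unlisted uridines, whose median per library was 14.7 to 17.8. At Ψ2416 the quality was 8.04, 8.57 and 8.94. The lowest median quality was at Ψ2880, with 6.09.

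The same 5-mers elsewhere in the rRNAs gave a comparison with only the 5 central bases held constant. It was added after the values were seen. Each site's central 5-mer had between 1 (Ψ2923) and 9 (Ψ2416 and Ψ2826) other copies in the 4 rRNAs that were unlisted and covered. The 5-mer also holds another listed modification at Ψ2416 (Um2417), Ψ2923 (Um2921 and Gm2922) and Ψ2944 (Am2946). The copies lack these, so at those sites the comparison is not of Ψ alone. The middle uridine of those copies was rarely miscalled. For GCTTG, the 9 copies had 1.97% to 11.1% mismatch in WT, against 88.2% at Ψ2416 and 68.7% at Ψ2826. For AATAC, the 5 copies had 2.42% to 11.0% deletion, against 48.5% at Ψ2735. For GTTAG, the 3 copies had 2.49% to 4.33% mismatch, against 86.0% at Ψ2975. In each of the 20 libraries (19 for the snR34 sites) mismatch was higher at the site than at every such copy, at all 8 sites. Even the weak Ψ2944, with 17.5% in WT, stood above its 4 copies at 2.22% to 6.07%.

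Errors were also frequent at neighbouring bases, and in some windows the neighbours were the stronger. In WT the pseudouridine held the highest mismatch of its own window at 5 of the 8 sites, but the highest deletion only at Ψ2735 and the highest insertion only at Ψ2975. In the window of Ψ2735 the mismatch peak was the uridine at 2731, with 48.1% in WT. It is not a known site on the list, but is too near Ψ2735 to count as unlisted here. In the A loop it was Um2921, with 76.7% in WT and 67.8% to 81.2% over 20 libraries, while Ψ2923 had 45.6% in WT. Gm2922 between them, which the methyltransferase Spb1 makes, had 24.3% mismatch and 41.1% deletion in WT. The uridine after Ψ2923, at 2924, was skipped in 67.9% of WT reads, the most of any position in the 8 windows.

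Beside Ψ2944 the peak was Am2946, with 53.0% mismatch in WT, and insertions reached 52.2% at 2947. Cm2948 had 4.90% mismatch. Beside Ψ2416, Um2417 had 82.6% mismatch in WT, insertions peaked at 62.7% at 2419, and deletions peaked at Um2421 with 53.4%. m5C2870, which the methyltransferase Nop2 makes, had 2.10% mismatch, 5 bases after Ψ2865. Deletions in that window were highest at 2862, with 52.4%. The other deletion peaks in WT were 42.4% at 2883 near Ψ2880, 35.1% at 2939 near Ψ2944, 16.3% at 2831 near Ψ2826 and 7.29% at 2980 near Ψ2975. Several modified bases share such a stretch, so the errors of one cannot be separated from those of its neighbour in these tables.

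The deletion of snR34 asks what remains of the signal when the guide of 2 of the sites is missing. At both of its sites mismatch was near the level of unlisted uridines, and at the other 6 sites it was close to that of WT. At Ψ2826, mismatch was 4.46% in snR34KO (95% Wilson interval 4.08 to 4.87, 10432 reads), against 70.7% in snR3KO, 70.9% in snR36KO and 68.7% in WT (67.9 to 69.5, 12247 reads). At Ψ2880 it was 4.23% in snR34KO (3.87 to 4.63, 10674 reads), against 38.8%, 40.9% and 37.6% (36.8 to 38.5, 12526 reads) in snR3KO, snR36KO and WT. Each strain has a single library of error values, so these differences carry no test. By the size rule of 10 percentage points, 2 of the 8 sites were lower in snR34KO than in WT, where 0.276% of 1447 covered uridines were. None of the 8 was lower by that much in snR3KO, where 0.345% of 1448 uridines were, or in snR36KO, where 0.138% of 1448 were.

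The 6 sites of other guides differed between snR34KO and WT by -0.457 to 1.01 points. The corresponding differences were -0.364 to 0.394 points for snR3KO and -0.586 to 1.53 points for snR36KO. Among all sites with an intact guide the lowest difference was -0.586 points, at Ψ2944 in snR36KO, and the highest was 3.28 points, at Ψ2880 in snR36KO. Levels of the snoRNAs themselves were not analysed here, so the label of snR34KO is checked only at its 2 target sites. The 3 strains with snR34 had 68.7% to 70.9% at Ψ2826, below the 72.9% to 80.6% of the 16 gradient and peroxide libraries. The sample titles name no sequencing batch, and the strain experiment cannot be told apart from any such batch here.

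Beyond the pseudouridines themselves, snR34KO differed from the other strains up to 5 bases away, with a different pattern at each site. Against all 3 other strains at once, snR34KO differed by at least 10 points in 10 values over the 5459 covered positions, and all 10 lay in these 2 windows. Of these, 5 were in mismatch, 1 in insertion and 4 in deletion. At Ψ2826 mismatches and insertions were both low: insertion was 6.21% in snR34KO and 19.2% in WT, and mismatch at the next uridine, 2827, was 4.19% in snR34KO and 18.6% in WT. Deletion at Ψ2826 was low in both, 1.06% in snR34KO and 2.42% in WT.

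At Ψ2880 deletions differed too, and the next base differed the opposite way. Deletion at the site was 2.42% in snR34KO, against 18.1% in WT, 17.8% in snR3KO and 17.9% in snR36KO. At the following C, 2881, the direction was opposite, with 29.6% deletion in snR34KO against 8.43% in WT, and 12.6% mismatch against 2.27%. At 2882, mismatch was 6.73% in snR34KO and 26.5% in WT, and deletion was 10.7% and 22.4%. Deletion at 2885, 5 bases after the site, was 13.6% in snR34KO and 32.0% in WT.

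**Figure D3:**
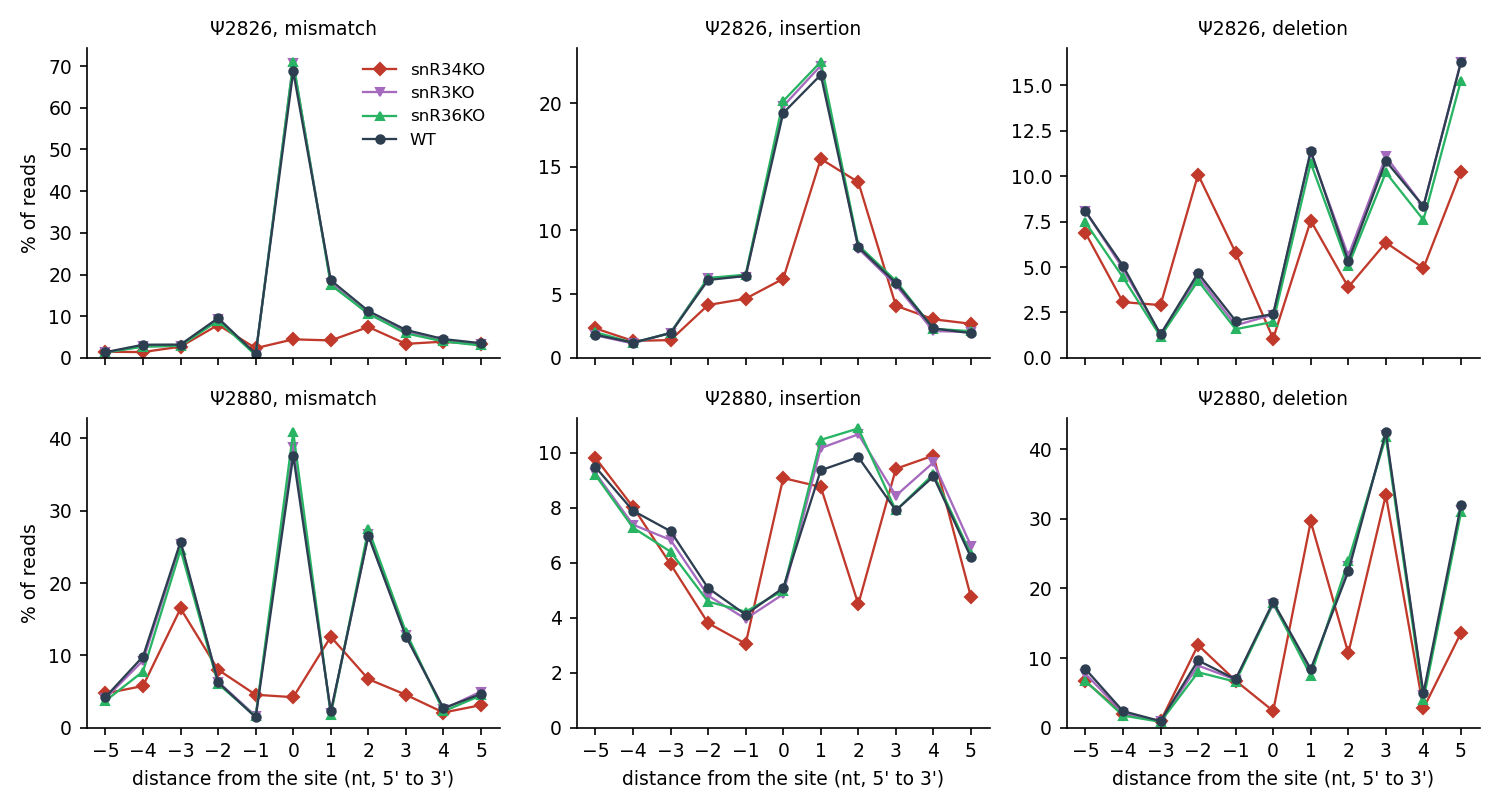
Mismatch, insertion and deletion (% of reads, y axes) at each position from 5 bases before to 5 bases after Ψ2826 (top) and Ψ2880 (bottom), one line per strain (1 library each). The 3 strains with snR34 overlie one another, whereas snR34KO lacks the mismatch peak at both sites and has a deletion peak of 29.6% one base after Ψ2880.

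Set against the unlisted copies of the same 5-mers, both sites in snR34KO lay within the range of unlisted sequence in every readout compared. For GCTTG in snR34KO, the 9 copies had 2.45% to 10.2% mismatch, 5.75% to 17.1% insertion and 0.366% to 2.57% deletion, and Ψ2826 lay inside all 3 ranges. For GCTCT, the central 5-mer of Ψ2880, the 7 copies had 1.84% to 9.15% mismatch, 4.00% to 22.8% insertion and 0.750% to 7.02% deletion, and the site again lay inside all 3. Base quality at Ψ2826 was 11.2 in snR34KO and 8.05 in WT, and at Ψ2880 9.45 in snR34KO and 5.64 in WT. Of 5 readouts (the 3 error types, base quality and the current of replicate 1), 5 lay within the range of the copies at each of the 2 sites in snR34KO, against 1 at each in WT. Ψ2416, which has the same GCTTG but another guide, kept 88.0% mismatch in snR34KO.

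Current levels gave a readout with 2 libraries per strain. A current is the mean level, in picoampere (pA), while a given 5-mer occupies the pore, and 5 overlapping 5-mers hold each site. The 4 largest differences between snR34KO and the mean of the other strains, among the 40 5-mers, were over Ψ2826 and Ψ2880. At GCTCT (bases 2878 to 2882, Ψ2880 in the middle), the levels were 81.2 and 80.3 pA in snR34KO, against 70.3 to 73.3 pA in the 6 other libraries. At GGCTC, 1 base upstream, they were 112.6 and 113.1 pA, against 106.8 to 108.4 pA. At GCTTG over Ψ2826 both snR34KO libraries had 78.1 pA, against 71.2 to 73.7 pA in the other 6. At TGGCT, where Ψ2826 is the last base, they had 108.9 and 108.7 pA, against 103.6 to 105.3 pA. The 2 groups did not overlap at any of these 5-mers.

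Both snR34KO libraries lay above all 6 others at 7 of the 10 5-mers over Ψ2826 and Ψ2880, and at 0 of the 30 over the other 6 sites. Over all 5158 5-mers measured in the 8 libraries this was so at 1.47%. The 3 exceptions were the 5-mers starting at 2823, 2825 and 2826. In limma across the 5158 5-mers, however, none passed an adjusted p of 0.05, whether snR34KO was set against WT (0.0% called) or against the mean of the other 3 strains (0.0% called). GCTCT had the lowest p in both contrasts. It was 9.13 ± 0.899 pA (SE) higher than in WT, with a limma adjusted p of 0.172, and 8.23 ± 0.734 pA (SE) higher than in the other 3 strains, with a limma adjusted p of 0.0794. GGCTC had 5.55 ± 0.539 pA (SE) in the second contrast, with the same limma adjusted p of 0.0794. GCTTG over Ψ2826 was 5.66 ± 0.866 pA (SE) higher than in WT, with a limma adjusted p of 0.588.

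Over the 8 sites, calls on current appeared only when a WT library was left out. At an unadjusted p under 0.05, limma had 17 5-mers in the contrast with WT, or 0.33% of all, and 7 of the 17 covered Ψ2826 or Ψ2880. Against the other 3 strains it had 11, or 0.213% of all, of which 6 covered these sites. Both shares are far below the 0.05 that a calibrated test without any differences would give, so the fit was conservative. Without WT replicate 1, limma called 703 5-mers against WT, 11 of them over the 8 sites. Of these, 6 covered Ψ2826 or Ψ2880 and 5 covered Ψ2735, Ψ2865, Ψ2923 or Ψ2975, whose guides snR34KO retains. In the same setting it called 3 against the other 3 strains, all over Ψ2826 or Ψ2880. Without WT replicate 2 it called 2 against the other strains, GGCTC and GCTCT over Ψ2880. Same-numbered strain libraries deviated together. GCTCT was 8.33 pA higher in snR34KO than in WT in replicate 1 and 9.93 pA higher in replicate 2. GGCTC was likewise close between the replicate numbers, at 5.59 and 4.74 pA. Other 5-mers over these sites were not, such as GGCTT over Ψ2826 (2.85 and -0.371 pA) and TCTTC over Ψ2880 (0.920 and 4.35 pA). Replicate 2 of each strain carries the word flongle, a smaller type of flow cell, in its file label.

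**Figure D4:**
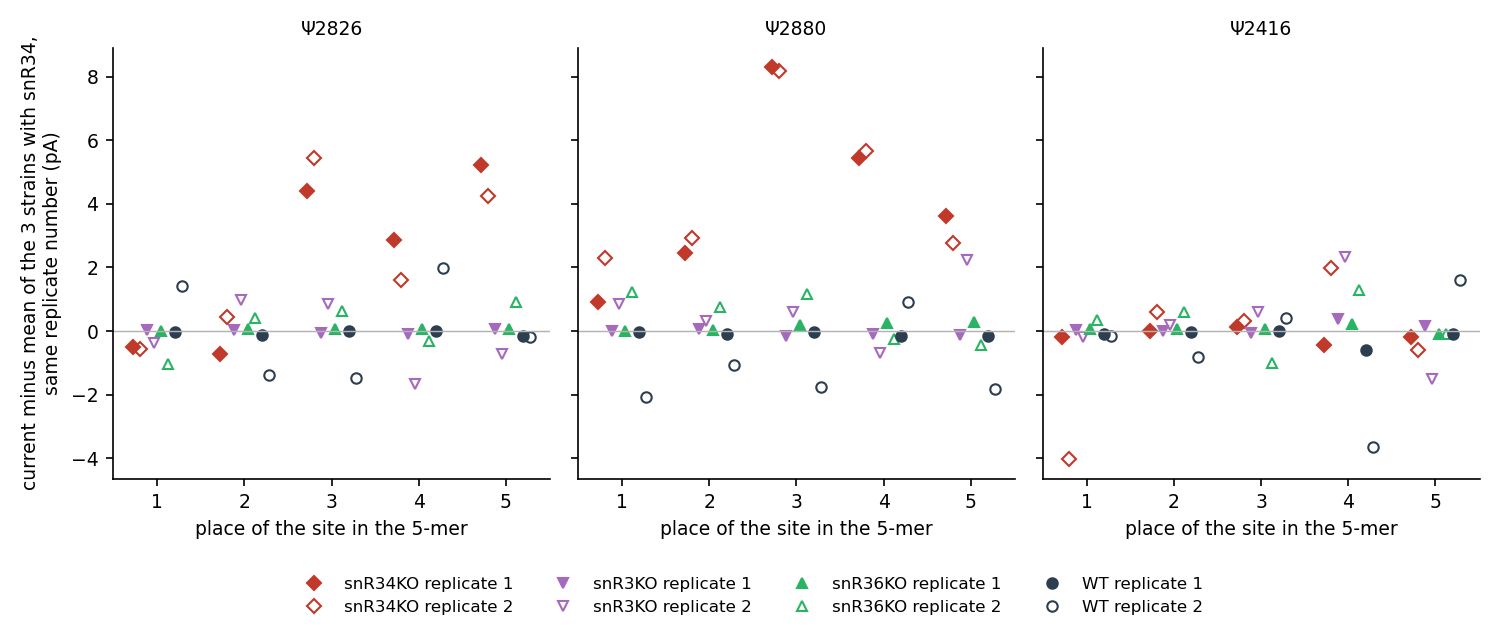
Current of each strain library minus the mean of the 3 strains with snR34 of the same replicate number (pA, y axis), for the 5 5-mers that place the site at base 1 to 5 (x axis), at Ψ2826, Ψ2880 and Ψ2416. Filled symbols are replicate 1 and open symbols replicate 2. Both snR34KO libraries stand high at the central 5-mer of Ψ2880 (8.30 and 8.17 pA) and of Ψ2826 (4.41 and 5.44 pA), and neither does so at Ψ2416, whose central 5-mer equals that of Ψ2826.

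The 6 sites of other guides had no such shift in replicate 1, where snR34KO lay within 0.448 pA of the mean of the other strains at all 30 5-mers. In replicate 2 the largest distance was 5.20 pA. The median distance at these 30 5-mers was 0.0676 pA in replicate 1 and 1.22 pA in replicate 2, whereas limma took one spread for both. For each site the 5-mer with the largest difference from WT was AGCTT at Ψ2416 (2.89 ± 1.88 pA, SE), GAATA at Ψ2735 (2.73 ± 1.84), GATTC at Ψ2865 (-1.52 ± 0.958), TTGTT at Ψ2923 (4.72 ± 2.78), AACGT at Ψ2944 (-1.66 ± 1.07) and AGGTT at Ψ2975 (3.80 ± 1.96). All 6 had a limma adjusted p of 0.930 with all libraries. Without WT replicate 1, 4 of the 6 were called, with limma adjusted p-values of 0.0164 for GAATA, 0.0276 for GATTC, 0.0262 for TTGTT and 0.0178 for AGGTT. In that setting WT is replicate 2 alone.

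The current also set the sites apart from unlisted copies of the same 5-mer where the guide was present. For the central 5-mer, the level at the site was below every copy in 8 of 8 strain libraries at Ψ2416, Ψ2735 and Ψ2975, in 6 of 6 libraries with snR34 at Ψ2826 and Ψ2880, and in 6 of 8 at Ψ2865. GCTTG in WT replicate 1 had 75.4 pA at Ψ2416 and 73.7 pA at Ψ2826, against 76.9 to 81.8 pA at its 9 copies. In snR34KO, Ψ2826 lay within the range of the copies in both libraries, and so did Ψ2880. At Ψ2944 the level was below all copies in 1 of 8 libraries. At Ψ2923 it was below its single copy in 1 of 8 and above it in 7. The 5-mers of Ψ2416, Ψ2923 and Ψ2944 also hold other listed modifications that the copies lack.

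Gradient fractions ask whether ribosomes of different sedimentation differ at these sites. No difference among fractions was called in the main fit. In the logistic fit of mismatched and matched reads, with dispersions moderated by limma, none of the 8 sites and none of the 5304 positions passed an adjusted p of 0.05 in the test over all 4 fractions (0.0% called). The contrasts of F2, F3 and F4 with F1 also called none of the 8 sites, and 0.0% of all positions each. At an unadjusted p under 0.05 they had 53, 34 and 208 positions, or 0.999%, 0.641% and 3.92% of all. A calibrated test without any differences would give a share near 0.05, so these contrasts, most of all F2 and F3, were conservative. Limma on empirical logits, which called none either, had 535, 450 and 543.

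Ψ2944 had the largest difference from F1 in all 3 contrasts. F1 had 22.9% and 21.7% mismatch there, F2 18.2% and 17.9%, F3 17.8% and 17.7%, F4 18.7% and 18.8%. The F1 values, from 118 and 157 reads, were higher than those of the other fractions without overlap. The differences were -4.24 points for F2 minus F1, -4.51 for F3 minus F1 and -3.53 for F4 minus F1. For F2 over F1 the odds ratio of a mismatch was 0.777 (95% interval 0.461 to 1.31), with an adjusted p of 1.00 in the limma-moderated fit. For F3 over F1 it was 0.760 (0.441 to 1.31) and for F4 over F1 0.811 (0.480 to 1.37). The 2 libraries of each fraction stood wholly apart from those of F1 at 2 of the 8 sites in F2, 1 in F3 and 1 in F4, against 33.7%, 33.0% and 29.2% of all covered uridines. Over the 8 sites, the 95% intervals of the odds ratios reached down to 0.363 and up to 3.57, so changes of that size could not be told from none.

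In the test over all 4 fractions, Ψ2416, Ψ2826 and Ψ2975 had the lowest p of the 8 sites, each with an adjusted p of 0.264 in the limma-moderated fit. Their unadjusted p was under 0.05, as it was at 878 positions, or 16.6% of all. That share is above the 0.05 of a calibrated test without any differences. Unlike the contrasts with F1, this test was therefore not seen to be conservative. At Ψ2416, F1 had 91.3% and 85.7% mismatch, F2 88.9% and 89.6%, F3 90.0% and 91.1%, F4 91.1% and 92.0%. At Ψ2975, F1 had 76.5% and 89.6%, F2 82.7% and 86.8%, F3 82.8% and 88.2%, F4 81.5% and 88.2%. The ranges of the 4 fractions overlapped at Ψ2975, and its libraries separated by replicate number instead. Replicate 2 was the higher in 4 of 4 fractions at Ψ2975, by 4.13 to 13.2 points, and at Ψ2826, by 1.63 to 7.35 points. These are 2 of the 8 sites, against 1.99% of 1410 covered uridines, a count made after the values were seen. A split by replicate number in either direction was common, at 37.5% of those uridines (529), of which 28 had replicate 2 higher. Same-numbered libraries deviated together, and with the replicate number as a block the limma-moderated adjusted p was 0.840 at Ψ2416, 0.887 at Ψ2826 and 0.902 at Ψ2975. With F2 replicate 2 or F4 replicate 1 left out, positions were called over all fractions, among them Ψ2416, Ψ2826 and Ψ2975. F2 was then replicate 1 alone, or F4 replicate 2 alone. These calls therefore cannot be told apart from a split by replicate number. Depth was also uneven with all libraries: at Ψ2416, F2 had 14366 and 1433 reads in replicates 1 and 2, and F4 124 and 5629. Leaving out any of the other 6 libraries gave no call among the 8.

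**Figure D5:**
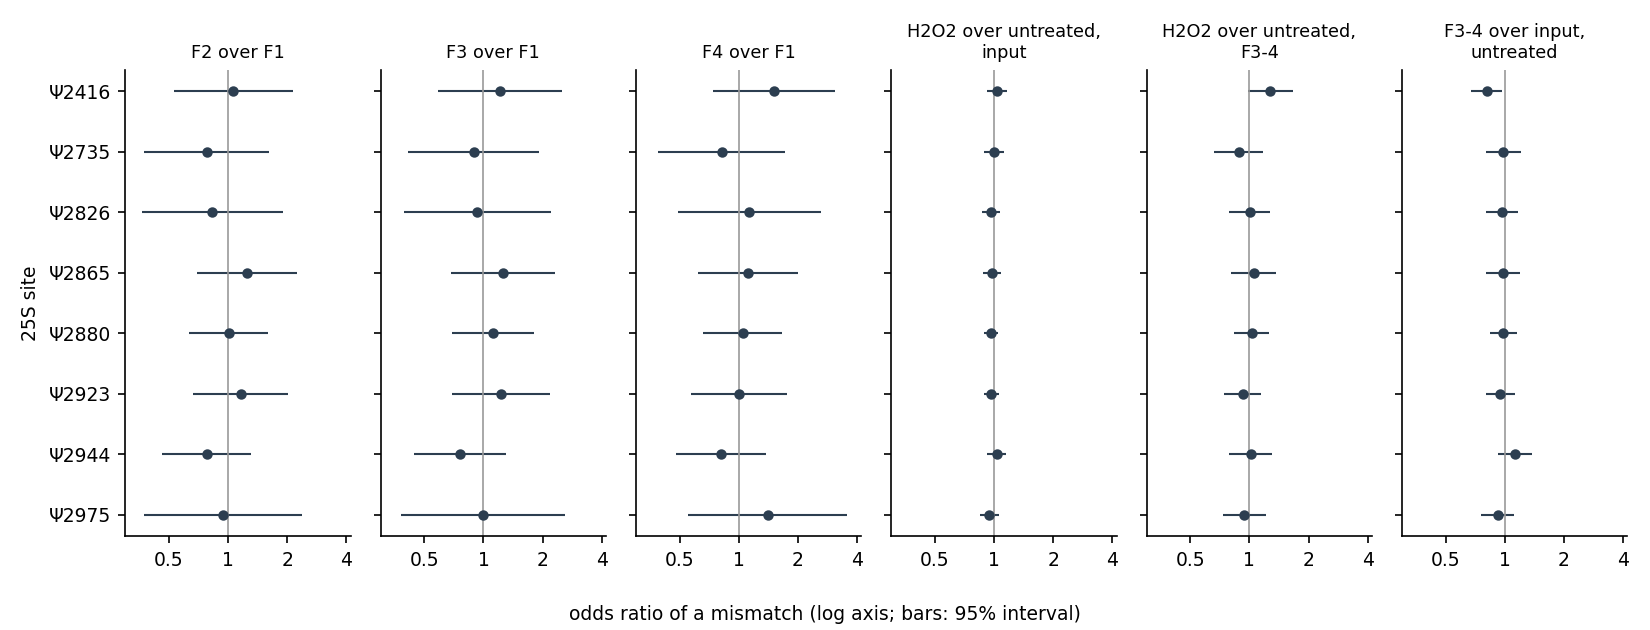
Odds ratio of a mismatch (x axes, log scale) at the 8 sites (y axis) in 6 contrasts, with 95% intervals as bars, from 2 libraries per group. The intervals are widest against F1, whose libraries had 92 to 164 reads at the sites, and all but 1 interval (Ψ2416, untreated F3-4 over untreated input) include an odds ratio of 1.

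Hydrogen peroxide asks whether a 30 min stress changes these sites in total RNA or in the F3-4 pool. In input, the 8 sites differed between H2O2 and untreated cells by -1.21 to 0.778 points, and neither any of the 8 nor any of the 5423 positions was called (0.0%). These are differences of unweighted means. The odds ratio, in which deeper libraries weigh more, pointed the other way at 7 of the 8 sites, so no direction is settled in input. The largest difference was at Ψ2944, with 18.1% and 18.5% in H2O2 input and 21.2% and 17.8% in untreated input. Its odds ratio was 1.03 (0.925 to 1.15). The lowest p was at Ψ2975, with 87.3% and 86.1% in H2O2 input and 84.9% and 86.9% in untreated input. The odds ratio was 0.947 (0.850 to 1.06), below 1 although the unweighted mean was higher in H2O2 input, with an adjusted p of 0.998 in the limma-moderated fit. At none of the 8 sites did the libraries of the 2 treatments stand apart, as they did at 24.6% of all covered uridines. Over the 8 sites the 95% intervals of the odds ratio in input ran from 0.850 to 1.17, the narrowest of these contrasts.

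In F3-4, the unweighted mean was lower in H2O2 than in untreated cells at 7 of the 8 sites and higher at 1, with a median difference of -0.931 points over the sites and 0.0882 points over all covered uridines. The odds ratio, in which the deeper H2O2 replicate 1 weighs more, was above 1 at 5 sites and below 1 at 3, so the means give no settled direction. None passed the test (0.0% of all positions). The largest difference was at Ψ2923, with 45.6% and 36.7% in H2O2 F3-4 and 44.8% and 44.6% in untreated F3-4, a mean of -3.54 points. The low value came from H2O2 F3-4 replicate 2, whose mismatch was also below that of its partner by 9.52 points at Ψ2865 and by 8.00 points at Ψ2880. The lowest p was at Ψ2416, with 90.8% and 90.6% in H2O2 F3-4 and 86.6% and 89.3% in untreated F3-4. Here the odds ratio was 1.28 (0.982 to 1.66), with an adjusted p of 1.00 in the limma-moderated fit. Ψ2416 was the only 1 of the 8 sites whose libraries stood apart, against 23.9% of all covered uridines. Without H2O2 F3-4 replicate 2 no position was called, and without H2O2 F3-4 replicate 1 the fit called 45 positions, none of them among the 8.

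The peroxide effect in F3-4 minus that in input was not called at any of the 8 sites or elsewhere (0.0%). Its largest value was -3.84 points at Ψ2923 and its lowest p was at Ψ2416, with an adjusted p of 1.00 in the limma-moderated fit. Without H2O2 F3-4 replicate 1 this contrast called 16 positions, none among the 8. Untreated F3-4 and untreated input, which also differ in how the RNA was prepared, gave no call (0.0%). The largest difference there was at Ψ2416, with 86.6% and 89.3% in untreated F3-4 and 91.2% and 90.4% in untreated input. Its odds ratio was 0.808 (0.672 to 0.972), with an unadjusted p under 0.05 and an adjusted p of 0.999 in the limma-moderated fit. The libraries stood apart at 3 of the 8 sites, against 29.3% of all covered uridines. Both contrasts at Ψ2416 share the untreated F3-4 libraries.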

How the data were processed

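Per the file headers, the deposited error tables give the authors' read count over each rRNA position, the mismatch, insertion and deletion fraction of those reads, and a base quality score. The deposited current tables give a signal level per 5-mer, in pA, at an unknown depth. File names assign them to EpiNano and Nanopolish. The sources used here name no basecaller, aligner or genome build, so no chromosome coordinates are printed. Fractions times coverage gave whole reads (tolerance 0.001).

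Positions needed 20 reads in every library of a fit. Mismatched reads were fitted by quasi-binomial logistic models per position, with dispersions moderated by limma 3.58.1 (R 4.3.3) and floored at 1, and currents with limma, all with Benjamini-Hochberg adjustment at 0.05 over all positions. The fits were run on simulated data with the same excess spread at every depth and the same current noise in every library. The data are less even, so that run does not show how the fits behave with unequally noisy replicates. Python 3.11.15, numpy 2.4.6 and pandas 2.3.3 did the rest. The list of 113 known sites and the guides came from general knowledge. The members and lists were chosen with earlier results of these data known. Named were all 8 sites, listed neighbours within 5 positions, the WT error peak of each window, positions where snR34KO differed by 10 points from all other strains, and the largest difference and lowest p per contrast. Nothing in the labels says that strain replicates came from separate cultures, so their p-values may measure technical spread. Gradient cultures were biological duplicates per the labels.

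The main fits did not pair libraries by replicate number. Unless the block is named, the p-values and intervals given here come from those fits. Fits with the replicate number as a block were run as an alternative. With the block, the limma adjusted p of GCTCT over Ψ2880 was 0.215 against WT and 0.125 against the other 3 strains. The criterion for pairing was that deviations of same-numbered libraries correlated above 0.1 in every pair of groups. This held for fractions (0.104 to 0.282) and strain currents (0.146 to 0.519) and not for the peroxide experiment (-0.0244 to 0.150). For fractions and strain currents the main p-values and intervals thus leave out a pairing that met the criterion.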

Additional observations from a re-analysis of the deposited data

How the results depend on the processing

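Of 163 recomputed results, 157 kept the count of sites within 1.5 times or the level within 1 SD. In most of these the count was 0 in the main fit and 0 again, also where the number called over all positions changed. Leaving out 1 library at a time, with the lone partner assumed to vary like the other groups, the number of the 8 sites called in the test over all fractions ranged from 0 to 3, the number of 5-mers called on current from 0 to 11 against WT and from 0 to 3 against the other 3 strains. In the other 7 contrasts on mismatch, leaving out a library called 0 sites each time. With an offset per library together with the replicate block, 1 site was called in F4 minus F1, Ψ2865, with a limma-moderated adjusted p of 0.0319. With the replicate block alone, 0 of the 8 sites and 0 of the 40 5-mers were called in any contrast. That offset and block also called 11 positions over all fractions, 15 in F2 minus F1, 9 in F3 minus F1, 44 in F4 minus F1, 1 for peroxide in input and 5 for peroxide in F3-4, where the offset alone called 5. Without H2O2 F3-4 replicate 2, 2 positions were called for peroxide in input. With all errors summed, 1 position was called over all fractions, and 7 of the 8 sites could be tested in the fractions and 6 in the peroxide experiment. Without snR34KO replicate 1, current called 1 5-mer against WT and 3 against the other strains, none over the 8 sites. The causes were not tested. Sites past 10 points numbered 2 in snR34KO, 0 in snR3KO and 0 in snR36KO, also with size rules of 5 and 20 points and with all errors summed.

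Limits: snR34KO has 1 library of error values. The logistic fit takes one dispersion per position for libraries of unequal depth. F1 and F4 replicate 1 hold under 170 reads a site.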
